A study of Mus musculus with 24 samples.

Results

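The miRNA families miR-297, miR-466, miR-467 and miR-669 of the mouse were followed in the mammary gland from adulthood through pregnancy and lactation into involution. Every listed mouse miRNA carrying 1 of these 4 numbers was taken, whatever its letter or arm, which gave 52 of the 1009 miRNAs listed. By number, 3 are named miR-297, 21 miR-466, 10 miR-467 and 18 miR-669. The choice used names only and no measured value. The summed level of the 52 was highest in adult glands and lower at each of the 3 later stages, and the adult mice did not overlap any later mouse.

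A miRNA is a short RNA cut from a hairpin precursor, which can yield a 5p and a 3p arm, and it lowers the output of messenger RNAs that match its seed, bases 2 to 8. Most copies of these 4 families lie in rodents in 1 intron of Sfmbt2, a Polycomb group gene. Sfmbt2 is imprinted and is read from the paternal allele in early embryos and in the placenta, and the miRNA cluster is known for its role in placental growth.

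Whole homogenates of abdominal and inguinal mammary glands came from 24 untreated female C57BL/6 mice, an inbred strain, with 1 small RNA library per mouse and 6 mice at each stage. The groups were adults aged 10 weeks (W10), late pregnancy at gestation day 18 (P18), lactation at its day 7 (Lac7) and early involution at its day 3 (Inv3). The series' design text has 3 for the lactation day and 7 for the involution day, and the days of the labels and of the study's methods are used. In such bulk samples, fewer cells of a type and less RNA per cell cannot be told apart. Levels are given as RPM, reads of a miRNA per 1000000 reads on listed miRNAs, so abundant miRNAs lower the RPM of the rest. The libraries held 660346 to 1165321 such reads, with the lowest median at Lac7 (693166.5). 1 read was worth 0.858 to 1.51 RPM, and a count of 0 allows 2.57 to 4.54 RPM in a library (3 reads). These limits cover counting error only.

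In the GENCODE annotation of GRCm38, Sfmbt2 spans chr2:10370510-10595253 on the plus strand. It holds 71 precursors named for the 4 families, from chr2:10466663-10518279, a stretch of 51.62 kb. All 71 lie in the intron between exon 10 (chr2:10461325-10461472) and exon 11 (chr2:10523945-10524027) of its transcript Sfmbt2-201, and no annotated exon of the gene overlaps the stretch. They are 29 of miR-669, 23 of miR-466, 14 of miR-467 and 5 of miR-297. The families alternate along the intron, with a median distance between neighbours of the same family of 2.42 kb for miR-669, 2.43 kb for miR-466 and 2.45 kb for miR-467. A further 10 precursors with these numbers lie outside Sfmbt2.

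**Figure D1:**
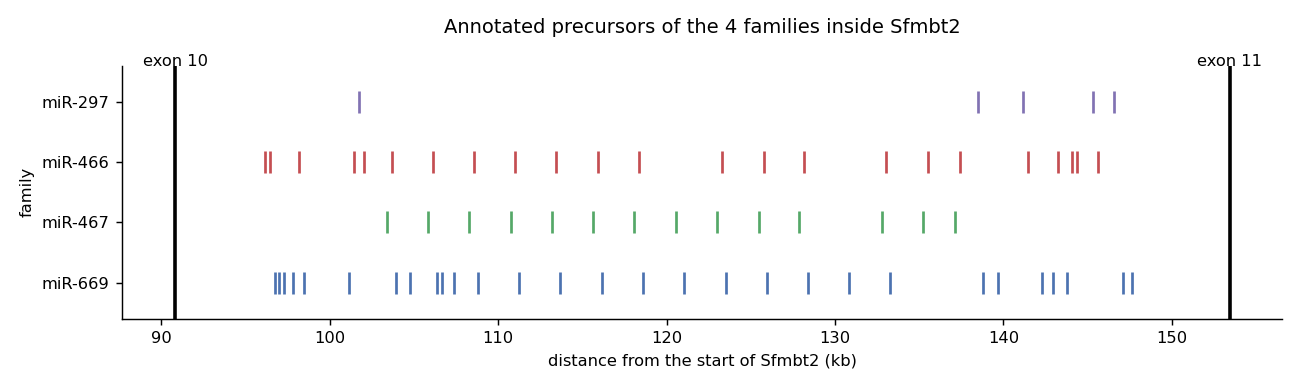
Positions of the 71 annotated precursors of the 4 families, 1 row per family, along Sfmbt2 in kb from the start of the gene. Each tick is 1 precursor, the black lines are exons 10 and 11, and the ticks of miR-466, miR-467 and miR-669 recur at about even steps across the intron.

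By name, 39 of the 52 members have precursors in Sfmbt2 only, 9 have theirs on other chromosomes only, 3 have both kinds and miR-466a-5p matched none. A precursor named Mir466, without a letter, lies in Sfmbt2 (chr2:10507918-10507990) and matched no member by name. Several names stand for many copies: miR-669a-5p has 12 precursors and each arm of miR-467a has 10. Sequencing reads from such near-identical copies cannot be assigned to 1 of them, so the split between similar names is uncertain. The mark @ follows 9 of the member names and 7 others. For 6 of those 7 the reference table has a sequence. Of these 6, 5 share theirs, in whole or for the most part, with another miRNA name, and none of those other names is listed.

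The RefSeq table for GRCm38.p6 matched 8 members, which are shown for their runs of alternating letters. All 8 have their precursor outside Sfmbt2, so none shows a member from the cluster there, and miR-466i-3p and miR-466q return below. Capitals mark the seed, and each sequence runs 5′ to 3′.
miR-466i-3p: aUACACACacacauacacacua
miR-466q: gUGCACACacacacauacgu
miR-467f: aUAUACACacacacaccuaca
miR-467g: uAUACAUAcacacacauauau
miR-466j: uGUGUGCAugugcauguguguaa
miR-466k: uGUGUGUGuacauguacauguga
miR-467h: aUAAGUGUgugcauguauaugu
miR-669n: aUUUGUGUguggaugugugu
C and A make up 70.0 to 86.4% of the letters of the first 4, and U and G 68.2 to 90.0% of those of the other 4. The longest stretch in which C or U alternates with A or G was 8 to 22 bases (median 20), against a median of 4 over the 1679 mature names of the table, of which 3.39% reach 8. The letters ACACACAC occur in 4 mature sequences of that table (0.238%), and these are the first 4 above. The letters GUGUGUGU occur in 7 (0.417%), of which miR-466k is the single member. Both were searched on the mature strand only. The table holds no member from the cluster in Sfmbt2, so these shares leave those members out. The 8 seeds are all different, so no seed group can be formed among them, although miR-466i-3p and miR-466q share a run of 14 bases.

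The precursor of miR-466i lies at chr13:17747473-17747593 and that of miR-466q at chr3:28419943-28420018. The mature sequences sit at chr13:17747552-17747573 for miR-466i-3p and chr3:28419988-28420007 for miR-466q, both on the plus strand.

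The families were low. All 52 members together made up 0.0828% of the miRNA reads in W10 mice, 0.0323% in P18, 0.0241% in Lac7 and 0.0263% in Inv3 mice. Summed over the members, W10 had 576 to 986.5 RPM (median 912), resting on 534 to 1128 reads per library. P18 had 213 to 397 RPM (median 330; 196 to 375 reads). Lac7 had 185 to 319 RPM (median 227; 129 to 223 reads), and Inv3 had 156 to 467.1 RPM (median 222; 138 to 519 reads). The W10 mice stood apart from all others, while P18, Lac7 and Inv3 overlapped.

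The stage means were 828 ± 185 RPM for W10, 322.5 ± 64.5 for P18, 241 ± 59.1 for Lac7 and 263 ± 115 for Inv3 (SD, n = 6 mice each). The mean was thus 2.57-fold lower at P18 than at W10, 3.43-fold lower at Lac7 and 3.15-fold lower at Inv3. Scaled by DESeq2 size factors in place of the read total, the Lac7 mean was 0.429 of that of W10, against 0.292 in RPM. The means of Inv3 and Lac7 were 1.09 apart as a ratio (standard error 0.224), and without Inv3 mouse 2, the highest of its stage, the ratio was 0.92. No test was made of the sums, since they add up chosen members.

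**Figure D2:**
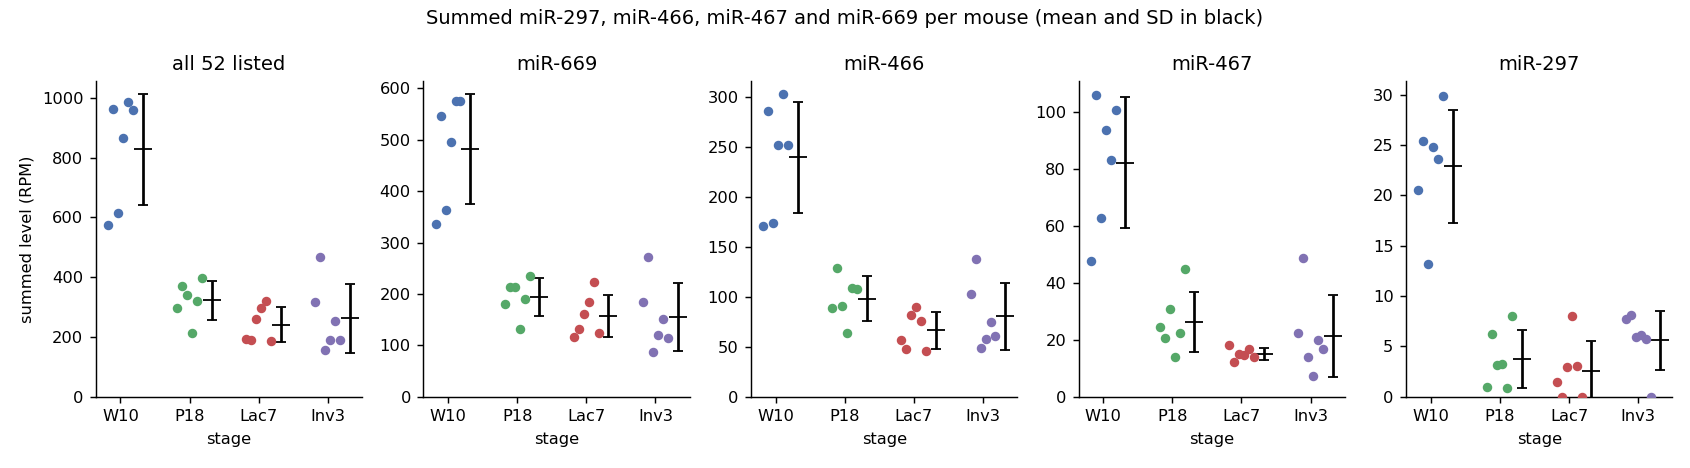
Summed level in RPM of all 52 members and of each family, by stage, with 1 point per mouse and the mean ± SD in black (n = 6). The W10 points of all 52 members lie between 576 and 986.5 RPM, above every later mouse.

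Each family had its highest mean at W10. The miR-669 sum was 482 ± 107 RPM for W10, 194 ± 36.4 for P18, 157 ± 41.3 for Lac7 and 155 ± 66.7 for Inv3. The miR-466 sum was 240 ± 55.7, 98.3 ± 22.4, 66.5 ± 18.5 and 80.6 ± 33.8 RPM in the same order. These 2 families held most of the reads at every stage. The miR-467 sum was 82.2 ± 22.9 RPM at W10 and 26.2 ± 10.6, 15.04 ± 2.08 and 21.4 ± 14.3 later, with Inv3 mouse 2 at 48.6. The miR-297 sum was 22.9 ± 5.63 RPM at W10 and 3.77 ± 2.86, 2.58 ± 2.97 and 5.60 ± 2.92 later, on 11 to 36 reads a stage.

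The sums were also taken by arm. The 22 members named 3p summed to 620 ± 155 RPM at W10 and 208 ± 58.2, 159 ± 55.5 and 182 ± 94.2 later. The 21 named 5p summed to 200 ± 36.5 RPM at W10 and 110 ± 13.5, 72.1 ± 8.87 and 75.9 ± 23.6 later. For the 5p arms the P18 and Lac7 mice did not overlap (93.2 to 130 against 61.6 to 87.5 RPM), whereas those of the 3p arms did. The largest part of each sum came from a single miRNA. miR-669c-5p had a mean of 70.9 RPM at P18 and 43.8 RPM at Lac7, and miR-669o-3p had 108.7 and 104.2 RPM. Whether the arms differ apart from these miRNAs was not tested.

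Fewer members were seen at the later stages. W10 libraries held at least 1 read of 26 to 38 members (median 33.5), P18 libraries of 21 to 30, Lac7 libraries of 15 to 24 and Inv3 libraries of 16 to 29. After thinning every library to 660346 reads, the means were 29.5 members for W10, 20.97 for P18, 18.6 for Lac7 and 19.4 for Inv3. All 52 had a read in at least 1 library, but only 6 had reads in all 24: miR-669o-3p, miR-669c-5p, miR-466c-3p, miR-466d-3p, miR-467e-5p and miR-466i-5p.

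Stages were compared with limma on log2(RPM + 1), all 24 libraries in the same fit. A miRNA entered when its mean reached 1 RPM in any stage, which 31 members and 513 other miRNAs did. The call needed a Benjamini-Hochberg adjusted p under 0.05 and a log2 fold change of at least 1 in either direction. Of the 31 tested members, 10 reached the minimum at W10 alone and 1 at Lac7 alone, so for them a difference in that direction was built into the choice, and counts over the 31 are a description. The 21 members not tested summed to 7.45 ± 4.39 RPM in W10, 3.90 ± 3.34 in P18, 2.14 ± 1.19 in Lac7 and 2.37 ± 1.74 in Inv3 mice, and none had more than 3 reads in a library.

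Between W10 and P18, 11 of the 31 tested members were lower at P18 and 1 was higher, and 19 were not called. Over all tested miRNAs, members included, 20.0% were called lower and 7.54% higher. The median log2 fold change was -0.88 over the members and -0.32 over all tested. Of the 11, 8 had mice that did not overlap between the stages, 8 of the 31 tested, and of all tested miRNAs 12.7% were lower without overlap. Among the 10 members whose mean over all 24 libraries reached 5 RPM, 6 were lower and 1 higher, and of the 336 miRNAs above that level 24.4% were lower and 10.7% higher. That mean includes W10. miR-669f-3p and miR-297c-3p, both called lower at P18 and Lac7, had 16.0 and 21.0 RPM at W10. At the later stages they had at most 3.74 and 5.0 RPM. The counts over these 10, here and at Lac7, are thus a description too.

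Between W10 and Lac7, 19 members were lower at Lac7 and 2 were higher, where 39.7% of all tested miRNAs were lower and 10.5% higher. The median was -1.18 over the members (-1.15 with the 4 members that had no read at Lac7 set to the bound of 3 reads) and -0.66 over all. The share of members called lower was 61.3%. Of the 10 members above 5 RPM, 9 were lower and 1 higher, and of the 336 miRNAs 42.3% and 14.3%. Between W10 and Inv3, 17 members were lower at Inv3 and 0 higher, where 19.5% of all tested miRNAs were lower and 5.51% higher. No member was higher at an unadjusted limma p under 0.05 or by edgeR or DESeq2 either. The median was -1.20 over the members and -0.41 over all. The 3 comparisons share the W10 mice, and 10 members were called lower in all of them, as were 9.93% of all tested miRNAs.

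The steps after P18 gave few calls. Between P18 and Lac7, 1 member was higher and 0 were lower at Lac7, where 7.54% of all tested miRNAs were higher and 22.6% lower. At an unadjusted limma p under 0.05, 7 members and 36.2% of all tested miRNAs were lower, and edgeR and DESeq2 called 0 members lower too. Of these, 4 members in Sfmbt2 passed the adjusted p without reaching the fold minimum, all lower at Lac7: miR-466c-3p, miR-466d-3p, miR-467e-5p and miR-669c-5p. The member median was -0.32, and that of all tested miRNAs -0.34. Between Lac7 and Inv3, 1 member was higher and 2 were lower at Inv3, where 16.5% of all were higher and 10.3% lower. The medians were 0.20 over the members and 0.28 over all.

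Scaling by DESeq2 size factors moved the median of all tested miRNAs by 0.23 (log2) for P18 against W10, 0.38 for Lac7 against W10 and 0.32 for Inv3 against W10. The member medians were then -0.75, -1.01 and -1.05, against -0.08, -0.28 and -0.09 over all tested. On that scale 28 of the 31 members reached the minimum, and 11, 15 and 14 of them were called lower, where 14.1, 29.4 and 11.7% of all miRNAs tested were.

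**Figure D3:**
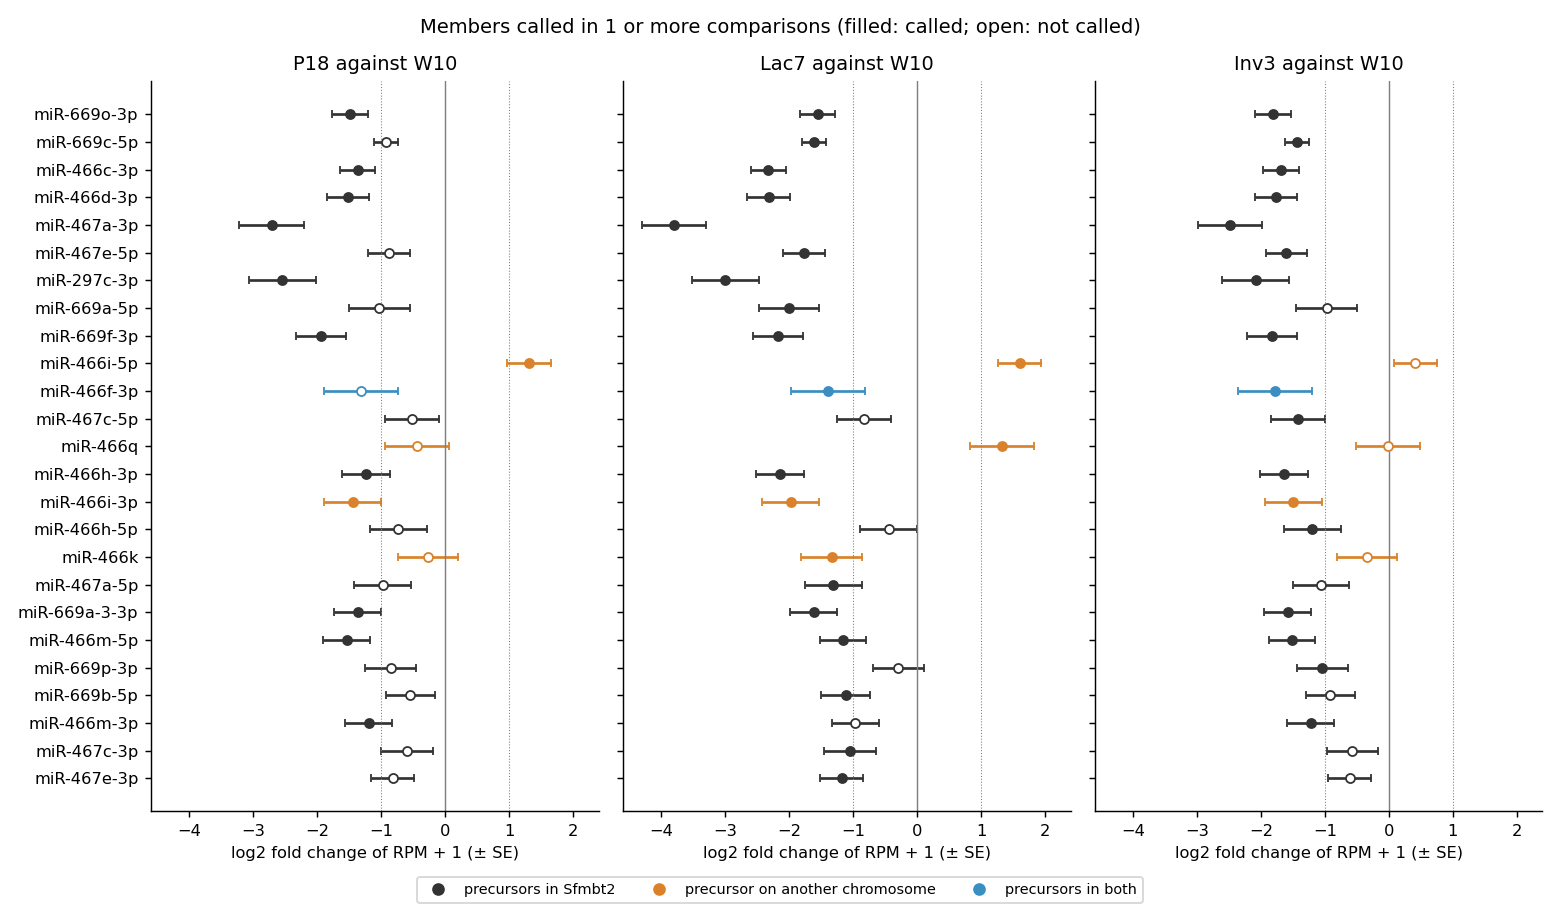
log2 fold change of RPM + 1 against W10 with its standard error from limma, at P18, Lac7 and Inv3, for the 25 members called in 1 or more of the 5 comparisons, ordered by mean level with the highest at the top. Filled points were called, and the orange points right of 0 at Lac7 are miR-466i-5p and miR-466q, whose precursors lie outside Sfmbt2.

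Markers of several cell types moved with the fall from W10. The 3 lymphocyte miRNAs summed to 3592 to 5007 RPM in W10 mice, 1637 to 2530 in P18, 424 to 838 in Lac7 and 1575 to 3743 in Inv3 mice. The 2 myeloid ones summed to 4064 to 8201, 2131 to 3775, 1135 to 2378 and 3199 to 5422 RPM in the same order. From Lac7 to Inv3 all 3 lymphocyte and both myeloid miRNAs were called higher, while the mean member sum was 241 and 263 RPM. The 5 skeletal muscle miRNAs, led by miR-133a-3p, summed to 2381 to 24032 RPM in W10 mice, 195 to 2421 in P18, 105 to 5005 in Lac7 and 215 to 948 in Inv3 mice. All 5 had reads at every stage. The 2 miRNAs listed for fat, nearly all miR-365-3p, summed to 420 to 866 RPM at W10 and 63.8 to 240 RPM at the later stages. In the other direction, the 9 epithelial miRNAs summed to 21661 to 26391 RPM at W10 and 126864 to 146753 RPM at Lac7, with 7 of the 9 called higher and 1 lower. The 2 secretory ones, miR-148a-3p and miR-375-3p, summed to 1820 to 3709 RPM at W10 and 43186 to 50886 RPM at Lac7, both called higher. The miRNA listed for endothelium, miR-126a-3p, had 15105 to 16425 RPM at W10 and 16938 to 19312 RPM at Lac7 and was not called. The 3 red blood cell miRNAs summed to 643 to 1953 and 893 to 1037 RPM, and the 4 of fibroblasts and smooth muscle to 163985 to 207016 and 145863 to 169773 RPM, at W10 and Lac7. Most of the latter sum was miR-143-3p, with a mean of 92349 RPM at W10 and 138521 at Lac7. miR-199a-3p had 82291 and 19785 RPM and miR-214-3p 1107 and 164 RPM, and 2 of the 4 were called lower at Lac7. Their part in the change of the 4 families was not tested.

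Marker sums also differed between mice of a stage. W10 mice 1 and 3 had the lowest member sums of their stage (576 and 614 RPM, the other 4 at 866 to 986.5) with muscle sums of 11000 and 2381 RPM, while W10 mouse 7 had 959 RPM beside 3719 RPM of muscle markers. Myeloid markers were lowest in mice 1 and 3 too (4064 and 4974 RPM, the other 4 at 7065 to 8201). The lymphocyte sum of W10 mouse 1 was the lowest of the stage (3592 RPM) and that of mouse 3 the highest (5007 RPM), and mouse 7 had 3704 RPM. At Inv3 the member sum was highest in mouse 2 (467.1 RPM) and next in mouse 1 (318 RPM). Mice 2 and 1 had the lowest epithelial sums of their stage, 29476 and 32752 RPM, and its highest lymphocyte sums, 3743 and 3069 RPM. Their myeloid sums, 4500 and 5422 RPM, were the highest of Inv3 too. Whether member and marker sums go together within a stage was not tested.

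A single miRNA, miR-669o-3p, held 33.7 to 43.2% of the member level, depending on the stage. It had 193 to 384 RPM at W10 (median 340), 58.6 to 148 at P18 (median 112), 69.1 to 165 at Lac7 (median 91.0) and 50.4 to 181 at Inv3 (median 75.7). Every W10 mouse was above every later mouse, and the 3 later stages overlapped. Its log2 fold change from W10 was -1.49 ± 0.28 at P18 (standard error; limma adjusted p = 7.8e-05), -1.56 ± 0.28 at Lac7 (2.17e-05) and -1.81 ± 0.28 at Inv3 (1.14e-05). DESeq2 put the Lac7 change just short of the fold minimum (-0.99). Without it the other 51 members summed to 522 ± 104 RPM in W10, 214 ± 32.5 in P18, 137 ± 29.4 in Lac7 and 171 ± 66.6 in Inv3 mice.

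miR-669c-5p came next in its family, with 114 to 179 RPM at W10 (median 131), 54.9 to 82.5 at P18 (median 70.4), 34.8 to 54.9 at Lac7 (median 43.7) and 27.7 to 72.01 at Inv3 (median 51.6). The mice of W10, P18 and Lac7 fell into 3 separate ranges, the P18 and Lac7 ranges only just apart, and those of Inv3 overlapped P18 and Lac7. Going from W10 to P18 it changed by -0.93 ± 0.19 on the log2 scale (limma adjusted p = 2.26e-04), just short of the fold minimum, and -0.68 ± 0.19 from P18 to Lac7 (0.00389). From W10 it was -1.61 ± 0.19 at Lac7 (2.94e-08) and -1.44 ± 0.19 at Inv3 (1.36e-06), both called. The other called members of the family, at lower levels, were miR-669f-3p, miR-669a-5p, miR-669a-3-3p, miR-669b-5p and miR-669p-3p.

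miR-669f-3p had 6.47 to 20.4 RPM at W10 (median 17.3), 1.02 to 6.39 at P18, 0 to 6.06 at Lac7 and 2.57 to 7.20 at Inv3. It was lower at all 3 later stages, with log2 fold changes of -1.94 ± 0.39, -2.17 ± 0.39 and -1.83 ± 0.39 (limma adjusted p = 2.06e-04, 2.49e-05 and 5.39e-04). miR-669a-5p, which is studied in heart and muscle progenitors as an inhibitor of the muscle factor MyoD, had 4.39 to 18.9 RPM at W10 (median 15.3), 1.08 to 13.5 at P18, 0 to 5.93 at Lac7 and 2.05 to 9.69 at Inv3. It was called at Lac7 only, with a log2 fold change from W10 of -2.01 ± 0.47 (limma adjusted p = 5.99e-04). At Inv3 it had -0.97 ± 0.47 (0.104), and Inv3 against Lac7 gave 1.03 ± 0.47 (0.076), not called.

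miR-466c-3p had the highest level among the 21 members named miR-466. It had 108 to 187 RPM at W10 (median 158), 28.2 to 86.0 at P18 (median 58.4), 19.7 to 38.6 at Lac7 (median 31.6) and 25.7 to 89.1 at Inv3 (median 40.8). The W10 mice were above all others, and the later stages overlapped. Its log2 fold change from W10 was -1.37 ± 0.28 at P18 (limma adjusted p = 1.95e-04), -2.32 ± 0.28 at Lac7 (3.4e-08) and -1.69 ± 0.28 at Inv3 (2.41e-05). From P18 to Lac7 it was -0.95 ± 0.28 (0.00537), short of the fold minimum.

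miR-466d-3p had 34.0 to 71.7 RPM at W10 (median 53.0), 9.76 to 21.8 at P18 (median 17.4), 4.21 to 19.7 at Lac7 (median 9.21) and 5.12 to 19.8 at Inv3 (median 15.5). Again no W10 mouse overlapped a later one. The log2 fold changes from W10 were -1.52 ± 0.33, -2.32 ± 0.33 and -1.76 ± 0.33 (limma adjusted p = 4.3e-04, 7e-07 and 1.37e-04). miR-466f-3p, with 3 precursors in Sfmbt2 and 1 on another chromosome, had 4.31 to 12.2 RPM at W10 and 0 to 10.8 RPM later. It was called lower at Lac7 (-1.39 ± 0.58, limma adjusted p = 0.0359) and Inv3 (-1.79 ± 0.58, 0.0147). On size factors neither call was kept (-0.97 with limma adjusted p = 0.153 and -1.46 with 0.0586). Neither was kept with edgeR (adjusted p = 0.188 at Lac7 and 0.185 at Inv3) or with DESeq2 (0.242 and 0.161). The Lac7 call was also lost without any 1 of W10 mice 2, 3, 4 and 5 or Lac7 mice 1 and 6, with limma adjusted p of 0.0530 to 0.115.

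**Figure D4:**
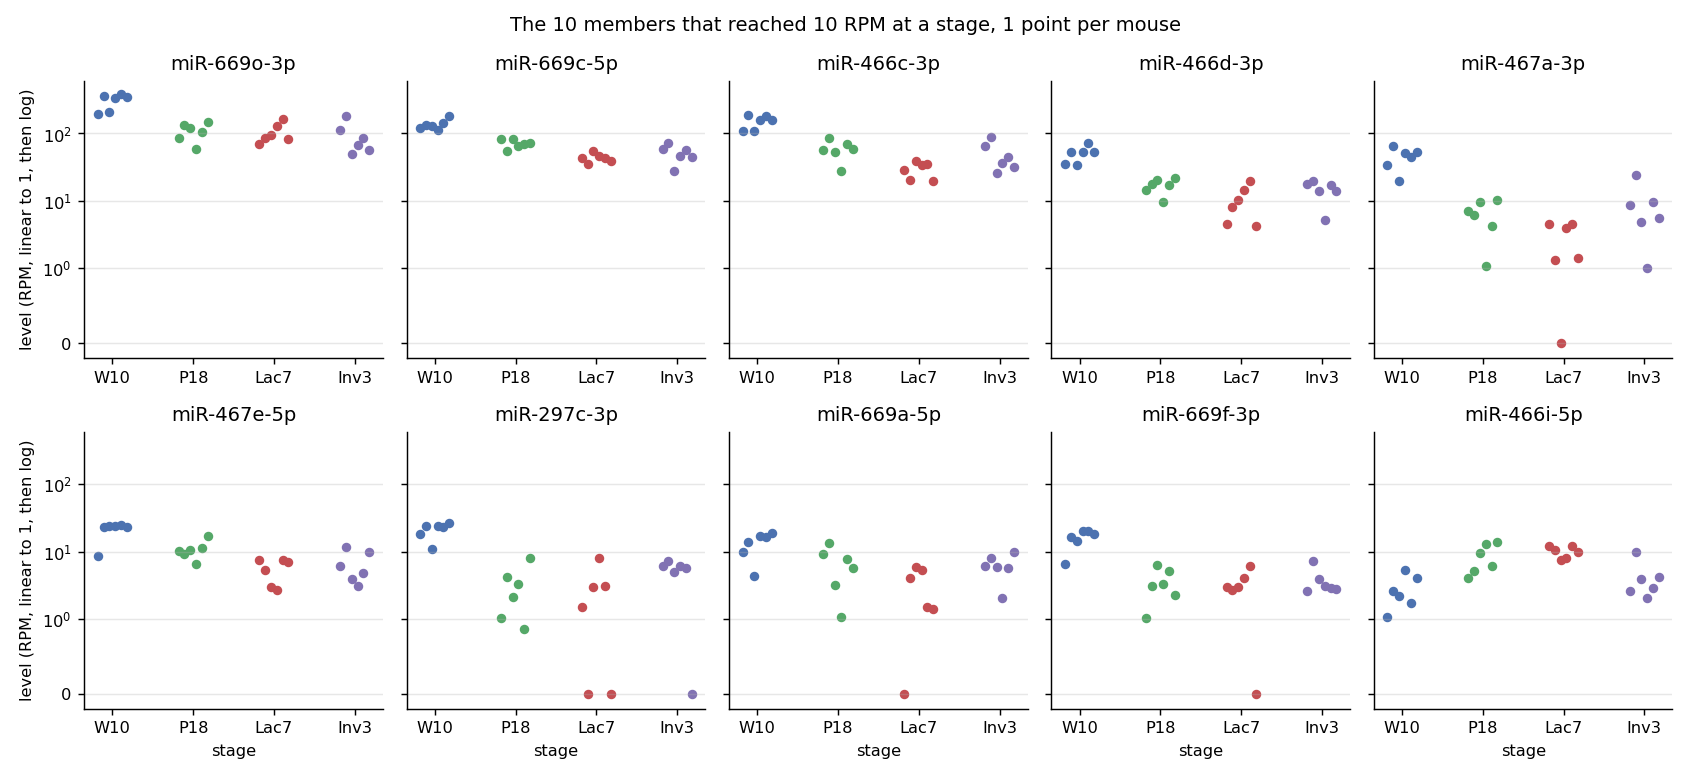
Level in RPM of the 10 members with a stage mean of at least 10 RPM, by stage, with 1 point per mouse on an axis that is linear up to 1 and logarithmic above. 9 of the 10 are highest at W10, and miR-466i-5p is lowest there.

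Of the tested members, miR-467a-3p had the greatest fall from W10 at each later stage on the log2(RPM + 1) scale. It had 19.8 to 64.7 RPM at W10 (median 47.6; 18 to 74 reads), 1.08 to 10.3 at P18 (median 6.67), 0 to 4.54 at Lac7 (median 2.70) and 1.02 to 24.3 at Inv3 (median 7.06). All W10 mice were above all P18 and Lac7 mice, and Inv3 mouse 2 reached into the W10 range. Its log2 fold change from W10 was -2.72 ± 0.50 at P18 (limma adjusted p = 6.94e-05), -3.80 ± 0.50 at Lac7 (2.16e-07) and -2.49 ± 0.50 at Inv3 (2.93e-04). Its share of the member level went from 5.39% at W10 to 1.09% at Lac7 and 3.42% at Inv3.

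miR-467a-3p was also the member called higher at Inv3 than at Lac7, by 1.31 ± 0.50 (limma adjusted p = 0.0331). That call was lost without any 1 of Lac7 mice 2, 3 and 6 or Inv3 mice 1, 2 and 5, with limma adjusted p of 0.0608 to 0.114, and on size factors (1.20, adjusted p = 0.0565). miR-467e-5p had 8.63 to 24.5 RPM at W10 (median 23.3), 6.51 to 17.2 at P18, 2.66 to 7.57 at Lac7 and 3.07 to 11.7 at Inv3. Of the W10 mice, 5 lay close together and mouse 1 far below them. The log2 fold change from W10 was -0.88 ± 0.33 at P18 (limma adjusted p = 0.0315, not called), -1.77 ± 0.33 at Lac7 (3.01e-05) and -1.60 ± 0.33 at Inv3 (3.03e-04), and from P18 to Lac7 -0.90 ± 0.33 (0.0252, not called).

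miR-297c-3p was the single tested member of its family, with 10.97 to 26.9 RPM at W10 (median 23.2), 0.86 to 8.05 at P18, 0 to 7.98 at Lac7 and 0 to 7.20 at Inv3. The W10 mice were above all later ones. It was lower at each later stage, by log2 fold changes of -2.55 ± 0.52, -2.997 ± 0.52 and -2.08 ± 0.52 (limma adjusted p = 2.37e-04, 1.49e-05 and 0.00227). The members for which every W10 mouse exceeded every other mouse were this one, miR-669o-3p, miR-669c-5p, miR-466c-3p and miR-466d-3p, 5 of the 31 tested (16.1%), against 33 of all tested miRNAs (6.07%).

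The 2 members called higher at a later stage than at W10 both have their only precursor outside Sfmbt2. miR-466i-5p had 1.08 to 5.38 RPM at W10 (median 2.41; 1 to 5 reads), 4.08 to 13.8 at P18 (median 7.80), 7.41 to 12.1 at Lac7 (median 10.3) and 2.05 to 9.90 at Inv3 (median 3.41). The Lac7 mice were above all W10 mice, and the P18 and Inv3 mice overlapped both. Its log2 fold change was 1.31 ± 0.34 at P18 (limma adjusted p = 0.00239) and 1.60 ± 0.34 at Lac7 (1.82e-04) from W10, and -1.19 ± 0.34 from Lac7 to Inv3 (0.00521).

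The opposite arm of the same precursor, miR-466i-3p, went the other way. It had 2.15 to 7.00 RPM at W10 (2 to 8 reads), 0 to 4.60 at P18, 0 to 2.66 at Lac7 and 0 to 2.77 at Inv3, with reads in 1 of the 6 mice at Lac7. It was called lower at P18 (-1.45 ± 0.45, limma adjusted p = 0.0094), Lac7 (-1.98 ± 0.45, 3.56e-04) and Inv3 (-1.50 ± 0.45, 0.00817), but edgeR's quasi-likelihood test did not call it at P18 (adjusted p = 0.0712), nor did DESeq2 at P18 (0.119) or Inv3 (0.0740). The stage total was 27 reads at W10 and 2 at Lac7, a ratio of 9.38 with a 95% counting interval of 2.36 to 81.4.

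miR-466q had 0 to 3.5 RPM at W10 (median 2.03), 0 to 2.13 at P18 (median 1.40), 1.51 to 13.4 at Lac7 (median 6.57; 1 to 9 reads) and 0 to 7.17 at Inv3 (median 1.36). The Lac7 mice reached highest, and every pair of stages overlapped. It was called higher at Lac7 than at P18 (1.77 ± 0.50, limma adjusted p = 0.00409) and W10 (1.33 ± 0.50, 0.0207), and lower at Inv3 than at Lac7 (-1.34 ± 0.50, 0.0268). The last call was lost without any 1 of Lac7 mice 1, 3 and 4 or Inv3 mice 2, 3 and 5 (adjusted p 0.0505 to 0.086). The call from W10 to Lac7 was lost without W10 mouse 3, Lac7 mouse 3 or Lac7 mouse 4 (0.0519 to 0.0676).

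**Figure D5:**
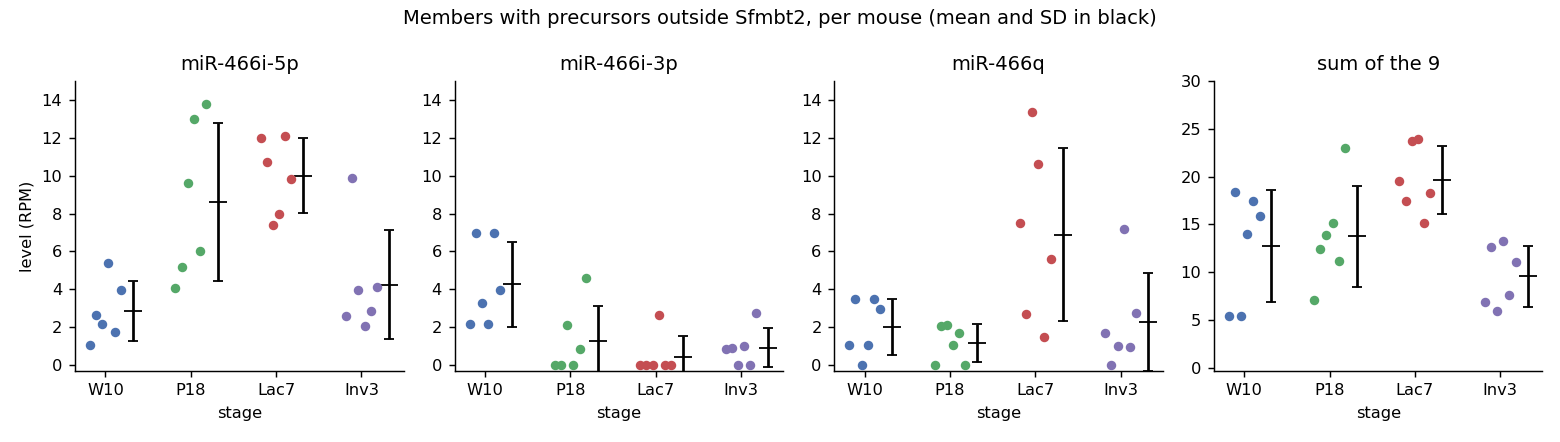
Level in RPM of both arms of miR-466i, of miR-466q and of the sum over the 9 members with precursors outside Sfmbt2 only, by stage, with 1 point per mouse and the mean ± SD in black (n = 6). miR-466i-5p and miR-466q are highest at Lac7, where 5 of 6 mice have no read of miR-466i-3p.

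Summed over the 9 members with no precursor in Sfmbt2, the level was 12.8 ± 5.87 RPM in W10, 13.8 ± 5.28 in P18, 19.7 ± 3.53 in Lac7 and 9.57 ± 3.15 in Inv3 mice. The 39 members with precursors in Sfmbt2 only had 803 ± 177, 304 ± 62.8, 218 ± 56.4 and 250 ± 111 RPM in the same order. The outside members thus made up 1.54% of the member level at W10 and 8.15% at Lac7, on 80 and 83 reads a stage. The Inv3 mice (5.93 to 13.3 RPM) did not overlap the Lac7 mice (15.1 to 23.9 RPM) in the outside sum. Of the 5 outside members tested, miR-466i-3p and miR-466k fell at Lac7 while miR-466i-5p and miR-466q rose. The difference between the 2 groups of precursors was not tested.

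The remaining called members had at most 10.97 RPM and 11 reads in any library, and are given by their reads. miR-466h-3p had 30 reads over the 6 W10 libraries and 2 at Lac7, a ratio of 10.4 after the totals (counting interval 2.65 to 90.0), and was called lower at P18, Lac7 and Inv3. The P18 call was lost with DESeq2 (adjusted p = 0.0584) and with limma at a pseudocount of 0.1 (0.135). miR-466h-5p, whose precursor is the same, was called at Inv3 only, and lost that call without any 1 of W10 mice 2, 3, 5 and 7 or Inv3 mice 1, 4 and 5 (limma adjusted p = 0.0632 to 0.0864). The call was also lost with edgeR (adjusted p = 0.0564) and DESeq2 (0.0852). miR-466h-5p is studied in cultured hamster cells as a miRNA that favours apoptosis.

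miR-466m-3p was called at P18 and Inv3, with 13 reads at W10 and 1 at each of those stages, and lost the P18 call without W10 mouse 5 (log2 fold change -0.99) and with DESeq2 (adjusted p = 0.0742), which gave no adjusted p at Inv3. miR-466m-5p, which like miR-466m-3p reached the test through W10 alone, was called at all 3 stages, on 17 reads at W10 and 2 to 4 later. Its Lac7 call was lost on size factors (log2 fold change -0.86), with edgeR (adjusted p = 0.199) and with DESeq2 (0.372), and its Inv3 call with DESeq2 (0.0990). miR-466k was called at Lac7, on 17 reads against 1 (ratio 11.8, counting interval 1.85 to 493.7), and not with DESeq2 (adjusted p = 0.0540).

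miR-467c-3p and miR-467e-3p, which reached the test through W10 alone, had 9 reads each over the W10 libraries and none over the 6 Lac7 libraries. With 3 reads over the stage taken as the floor at Lac7, W10 was 2.08-fold above that floor for both. That value leaves out the counting error of the 9 reads. The call of miR-467c-3p was lost without W10 mouse 5 or 7 (limma adjusted p = 0.0742 and 0.067), and DESeq2 called neither of the pair (adjusted p = 0.275 and 0.187). miR-467c-5p was called at Inv3 and miR-467a-5p at Lac7, the latter on 17 reads against 3 and with neither edgeR (adjusted p = 0.158) nor DESeq2 (0.248). miR-669a-3-3p, which also reached the test through W10 alone, was called at all 3 stages, on 20 reads at W10 and 2 to 4 later. DESeq2 kept none of these calls (adjusted p = 0.0742 at P18, 0.0657 at Lac7 and 0.0990 at Inv3). miR-669b-5p, which reached the test through W10 alone too, was called at Lac7, on 11 reads against 1. It was not called without W10 mouse 4 (log2 fold change -0.90), with edgeR (adjusted p = 0.0799) or with DESeq2 (0.195). miR-669p-3p was called at Inv3, on 11 reads against 2, and lost the call without any 1 of W10 mice 1, 2, 4 and 5 or Inv3 mice 1, 3, 4 and 6 (limma adjusted p = 0.0654 to 0.0943). Neither edgeR (adjusted p = 0.128) nor DESeq2 (0.170) called miR-669p-3p at Inv3. The other 6 tested members had no call in the 5 comparisons.

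In 8 precursor names both arms were tested. At W10 the means of miR-466h (2.90 RPM 5p, 5.12 3p), miR-466i (2.83 and 4.26), miR-466m (2.78 and 2.003) and miR-669b (1.81 and 1.10) lay within 2-fold of each other, and those of the other 4 further apart. miR-467a had 44.6 RPM of its 3p arm against 2.75 of its 5p arm in the W10 mean, and miR-466c 150 against 1.28. In miR-467e the order was the reverse, with 21.1 RPM of the 5p and 1.47 of the 3p arm. miR-467c had 6.52 RPM of the 5p and 1.44 of the 3p arm. Among names with 1 arm tested, miR-669c was read almost wholly as its 5p arm (135.9 against 0 RPM at W10) and miR-669o as its 3p arm (306 against 0.145). Of the 8, miR-466i was the one whose arms had log2 fold changes of opposite sign from W10 to Lac7, 1.60 and -1.98.

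Values are also given for another imprinted group of miRNAs, the Dlk1-Dio3 cluster. Its 83 listed members summed to 2397 ± 298.9 RPM in W10, 2218 ± 126.9 in P18, 478 ± 153 in Lac7 and 1101 ± 438 in Inv3 mice. Of its 53 tested members, 3 were called lower from W10 to P18 and 35 from P18 to Lac7, against 11 and 0 of the 31 tested here and 20.0 and 22.6% of all tested miRNAs. The 0 was 3 with a pseudocount of 0.1 and 4 without P18 mouse 4. From Lac7 to Inv3, 17 of the 53 were called higher, against 1 of the 31 here and 16.5% of all tested miRNAs. From W10 to Lac7, 43 of the 53 were called lower, against 19 of the 31 and 39.7% of all tested miRNAs. The 4 tested miRNAs of other imprinted loci, led by miR-335-5p of Mest, were called higher from W10 to P18, 4 of 4, as were 7.54% of all tested. From P18 to Lac7, 3 of these 4 were called lower, as were 22.6% of all tested. The X-linked rodent cluster, which is known from the testis, had 9 listed members, none of which reached the minimum, and a summed mean of 0.850 to 1.02 RPM by stage. The difference between these groups in the timing of the fall was not tested.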

How the data were processed

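The authors prepared the libraries with a QIAseq miRNA kit and assigned the reads with QuickMIRSeq to miRBase 22. The submitters' processing notes name GRCm38, Trimmomatic 0.36, cutadapt, FastQC and MultiQC. The deposited values are RPM on the 1009 listed miRNAs. They are whole multiples of 1 step per library, and whole reads were recovered for 100% of the values (tolerance 0.1 read). Stages were compared with limma 3.58.1 (lmFit, eBayes with trend) in R 4.3.3 on log2(RPM + 1), a scale that understates the change of low miRNAs, and edgeR 4.0.16 and DESeq2 1.42.0 on the recovered reads were alternatives. All were tested on simulated data. Sums, sequences and intervals were computed in python 3.11.15 with scipy 1.17.1, pandas 2.3.3 and numpy 2.4.6, and plots with matplotlib 3.10.9. Bounds and intervals use reads summed over a stage, and intervals are exact at 95%.

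Named members are those called in 1 or more comparisons or with a stage mean of at least 10 RPM, which gave 25. The members, marker lists and comparisons were chosen with earlier results of these data known. Mice are separate animals, and the labels do not say that those with the same number are paired. Precursors were matched by name to GENCODE and RefSeq. The sources used here do not say whether molecular identifiers were counted. No library was left out.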

Additional observations from a re-analysis of the deposited data

Results flagged for a closer look

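Of 126 groups of 6 mice (sums and named members at each stage), 18 had an end mouse whose gap to the next exceeded Dixon's 95% limit. The usual rate of 1 in 20 (6.3 here) is for continuous values, and the groups share mice and reads. A group with reads in a single mouse always exceeds the limit, so 18 cannot be set against 6.3. Inv3 mouse 2 stood above its stage in 6 of the 18 groups. It had a miR-467 sum of 48.6 RPM (next 22.3), miR-467a-3p at 24.3 RPM on 27 reads (next 9.52), miR-466f-3p at 10.8 RPM (next 3.43) and miR-466i-5p at 9.90 RPM (next 4.15). It also had miR-669f-3p at 7.20 RPM (next 3.95) and miR-467c-3p at 2.70 RPM (next 0.95). Inv3 mouse 6 had no read of miR-297c-3p (0 RPM, next 4.94) and a miR-297 sum of 0 RPM (next 5.71). W10 mouse 1 had 8.63 RPM of miR-467e-5p, with the next mouse at 22.7.

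The others rest on 1 to 3 reads, and in several the other 5 mice had none. At Lac7, miR-466h-3p and miR-466i-3p were each at 2.66 RPM in mouse 4, miR-466k at 1.34 in mouse 2, miR-669b-5p at 1.40 in mouse 6 and miR-669p-3p at 4.54 in mouse 5. At Inv3, miR-466i-3p was at 2.77 RPM in mouse 6, miR-466m-3p at 0.95 in mouse 5 and miR-669a-3-3p at 2.57 in mouse 1. At P18, miR-466m-3p was at 1.15 RPM in mouse 6.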

How the results depend on the processing

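None of the 54 calls of a member in a comparison changed sign in the 1619 alternative values computed for them. Kept were 48 with a pseudocount of 0.1, 17 with a pseudocount of 10, 46 on size factors, 45 with edgeR and 34 of 53 with DESeq2, which gave no adjusted p for the other, and 45 when any 1 mouse was left out. The number of members called was 12 (P18 against W10), 1 (Lac7 against P18), 3 (Inv3 against Lac7), 21 (Lac7 against W10) and 17 (Inv3 against W10). With a pseudocount of 10 these became 5, 0, 0, 6 and 6, and with a minimum of 10 RPM, under which fewer members are tested, 7, 0, 2, 10 and 8. A pseudocount of 0.1 gave 4 for Lac7 against P18, 3 of them lower. The edgeR test on the recovered reads called 11, 1, 3, 16 and 14. DESeq2 gave 12 for Lac7 against W10 and 10 for Inv3 against W10. A fit of only the 12 libraries gave 2 for Lac7 against P18 and 1 for Inv3 against Lac7, and no filter gave 1 for the latter. For these the cause was not tested. Size factors left 2 calls for Inv3 against Lac7, both lower, and a Lac7 to W10 ratio of the sums of 0.429.

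Leaving out 1 mouse gave 11 to 15, 1 to 5, 1 to 4, 20 to 23 and 15 to 18 calls in the same order. For Lac7 against P18 the count of 5 came without P18 mouse 4, 3 came without Lac7 mouse 3, 4 or 5, and 2 without W10 mouse 1, P18 mouse 3 or Lac7 mouse 2. For Inv3 against Lac7, 1 was left without Inv3 mouse 2 or 5. The summed level ranged over 796 to 877.9 RPM for W10, 308 to 344.5 for P18, 226 to 252 for Lac7 and 222 to 284 for Inv3. Its ratios to W10 ranged over 0.367 to 0.416 (P18), 0.273 to 0.305 (Lac7) and 0.268 to 0.343 (Inv3), those of Lac7 to P18 over 0.700 to 0.784 and those of Inv3 to Lac7 over 0.920 to 1.18. With at least 3 reads required, 19.3, 11.7, 9.0 and 11.2 members per library were seen at W10, P18, Lac7 and Inv3.

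With the mouse number as a replicate block, 13, 1, 2, 19 and 16 members were called, and 48 of the 54 calls were kept. Deviations from the stage means, over 188 miRNAs, correlated at -0.0451 on average in the 33 same-numbered pairs of libraries (-0.795 to 0.612). In 183 other pairs the average was 0.00388 (-0.832 to 0.79). Whether some same-numbered libraries share a batch cannot be told from these averages.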
